A study of Homo sapiens with 16 samples.

Results

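The 32 p53 target genes described here were taken from a list of symbols, each of which matched 1 Ensembl identifier among the 60676 genes of the deposited count tables. Of the 32, 31 passed the filter on low counts, as did 21569 genes in all. The exception was TNFRSF10C. RNA was sequenced from 2 human melanoma cell lines, with 8 libraries of A101D, labelled as methionine dependent, and 8 of MeWo, labelled as methionine independent. Both are established lines, and neither carries a further genetic change in the labels. Cells were grown, per the labels, either with methionine at 200 µM or with homocysteine at 200 µM in its place, the precursor from which cells remake methionine. No label says which library came from which medium, or that numbered libraries are separate cultures. The 4 groups are therefore only A101D replicates 1 to 4, A101D replicates 5 to 8, MeWo replicates 1 to 4 and MeWo replicates 5 to 8. That division of the numbers was chosen with earlier results of these data known, so tests between replicates 1 to 4 and 5 to 8 describe these libraries and are no independent evidence. All p-values measure the spread between libraries, which may be technical.

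The transcription factor p53 is stabilised when cells meet DNA damage, oncogene activity or metabolic stress, and it then binds a pair of short, similar DNA half-sites near its target genes. Its targets arrest the cell cycle, repair DNA, shift metabolism and prepare cell death. Others, MDM2 first among them, act back on p53 and limit its activity. In melanoma p53 activity is often held down by MDM2 and its relative MDM4.

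Libraries held 28910881 to 38961862 counts. Between 31281 and 34607 genes had a count in A101D, and between 30066 and 31433 in MeWo without replicate 2, which stood apart with 34471. All 24 pairs of libraries within a group differed beyond counting noise (chi-square of 1.97 to 8.21 per gene). The melanocyte genes MLANA, PMEL, MITF, SOX10 and S100B were expressed in both lines, whereas TYRP1 lay at 0.393 and 1.42 CPM (read counts per 1000000 of the scaled library size) in the A101D groups and at 2253 and 2488 CPM in the MeWo groups. TYR likewise lay at 1.39 and 1.64 CPM in the A101D groups and at 307 and 292 CPM in the MeWo groups. Summed over 8 melanocyte markers, libraries held 2871 to 3464 CPM in A101D replicates 1 to 4, 2496 to 2743 CPM in its replicates 5 to 8. MeWo libraries held 10265 to 11476 CPM. Single markers did not all follow that order, since DCT measured 1652 and 1332 CPM in the A101D groups against 488 and 524 CPM in the MeWo groups, and S100B 681 and 536 CPM against 129 and 135 CPM. The sum of 5 fibroblast markers lay between 924 and 1039 CPM in A101D replicates 1 to 4 and between 582 and 652 CPM in A101D replicates 5 to 8. MeWo had 76.0 to 85.8 CPM of them. Almost all of that sum in A101D was the collagen gene COL1A2, and DCN stayed under 1 CPM there. PDGFRB was also higher in A101D, but LUM, DCN and COL1A1 were higher in MeWo. LUM measured 72.6 and 75.7 CPM in the MeWo groups against 1.30 and 2.08 CPM in the A101D groups. DCN measured 3.91 and 4.48 CPM in the MeWo groups. Of 5 leukocyte and endothelial markers, PTPRC, CD3E, CD14 and PECAM1 stayed under 1 CPM in every group, while VWF measured 3.71 and 15.8 CPM in A101D replicates 1 to 4 and 5 to 8 and 0.942 and 1.25 CPM in MeWo. That list summed to 3.38 to 4.74 CPM in the former A101D libraries, 14.8 to 18.8 CPM in the latter, and 1.24 to 2.27 CPM in MeWo. Of 5 keratinocyte and epithelial markers, KRT5, DSG3 and EPCAM stayed under 1 CPM, KRT14 measured 0.594 and 1.94 CPM in the A101D groups, and KRT10 lay between 21.3 and 38.9 CPM in all groups. Their sum lay between 34.0 and 42.8 CPM in A101D libraries and between 19.4 and 24.99 CPM in those of MeWo. The part of these differences in the results was not tested, and in bulk samples fewer cells of a type and less RNA per cell cannot be told apart.

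Most of the target genes were more abundant in A101D than in MeWo, in both sets of replicate numbers. In replicates 1 to 4, 27 of 31 were lower in MeWo and 3 were higher, where 42.3% of all genes tested were lower and 37.1% higher. In replicates 5 to 8, 27 were again lower and 3 higher, against 43.9% and 40.3% of all genes. Both counts of lower genes include SPATA18 and CMBL, which had 3 and 4 counts over all MeWo libraries. They passed the low-count filter only through A101D, so they could only come out lower in MeWo. The median log2 fold change of MeWo over A101D was -1.05 in replicates 1 to 4 and -1.18 in replicates 5 to 8, while the medians over all genes tested were -0.05 and -0.04. There were 25 genes lower in MeWo in both sets and 2, PERP and PPM1D, higher in both. The share of all genes tested that was lower or higher in both sets was not counted, so these joint counts have no background. SERTAD1 and PIDD1 changed sides, and APAF1 and ABHD4 passed in 1 set only.

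**Figure D1:**
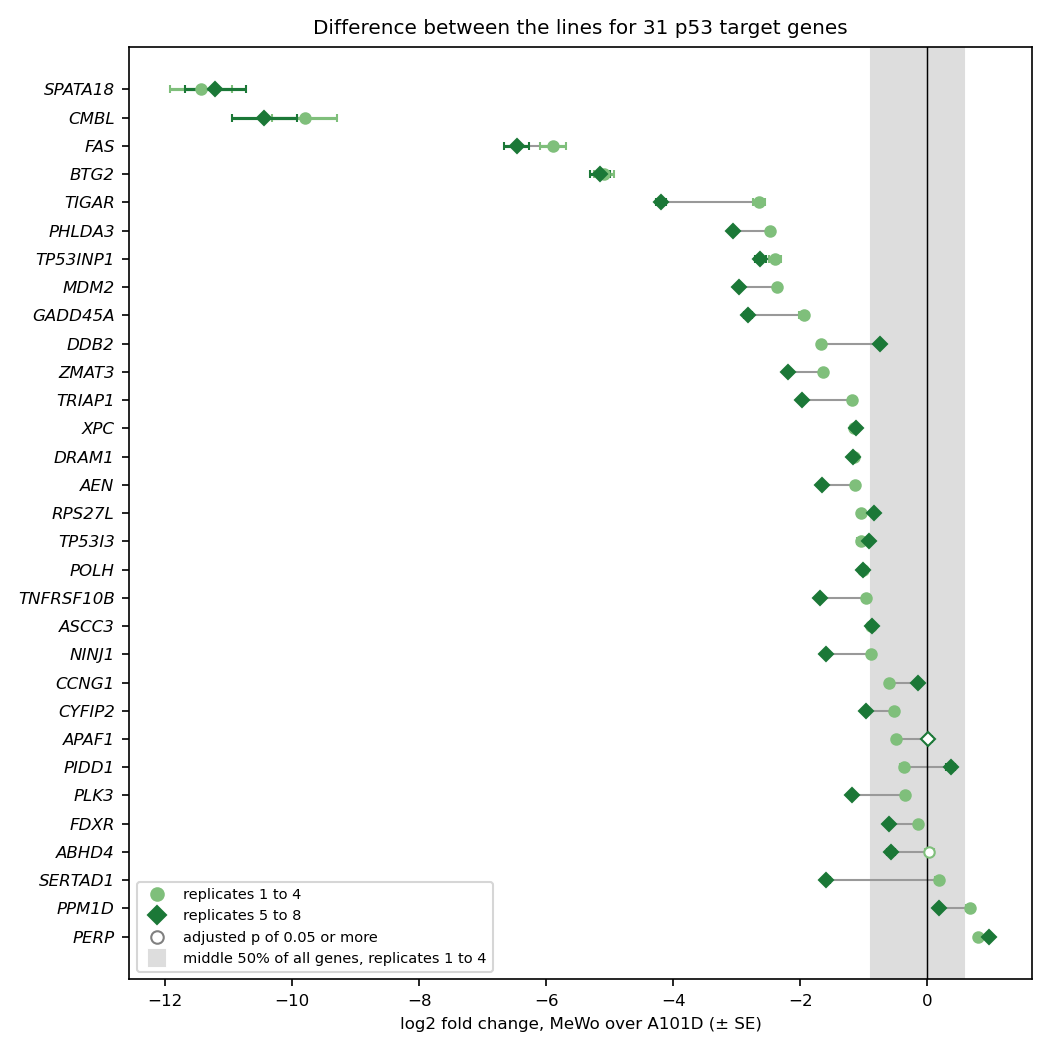
Log2 fold change of MeWo over A101D (horizontal axis) with its standard error for the 31 tested p53 target genes, in replicates 1 to 4 (circles) and in replicates 5 to 8 (diamonds). Open symbols did not pass an adjusted p of 0.05, and the grey band holds the middle 50% of all genes tested in replicates 1 to 4. SPATA18, CMBL, FAS and BTG2 lie farthest to the left, and PPM1D and PERP lie to the right of 0 in both sets.

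Between replicates 1 to 4 and replicates 5 to 8 most target genes differed in A101D and few in MeWo. In A101D, 21 of 31 were higher in replicates 5 to 8 and 9 were lower, where 33.1% of all genes tested were higher and 32.4% lower. The median log2 fold change was 0.32 for the target genes and 0.01 for all genes. In MeWo, 4 were higher and 3 lower, against 6.16% and 7.45% of all genes, with medians of 0.01 for the target genes and 0.00 for all. The difference between those changes (MeWo minus A101D) passed for 21 target genes. It was negative for 15 and positive for 6, where 23.2% of all genes were negative and 25.9% positive.

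The scaling of library sizes bears on these counts. With total counts alone the median of all genes in A101D moved from 0.01 to 0.11, and the target genes lower in replicates 5 to 8 fell from 9 to 5 while the 21 higher ones stayed 21. Over all genes, 8490 were then higher and 5770 lower, against 7145 and 6996 with TMM factors. In MeWo the share of higher genes among all called genes was 45.3% with TMM factors, 33.6% with median-of-ratios factors, 66.3% with total counts and 31.7% without the low-count filter.

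**Figure D2:**
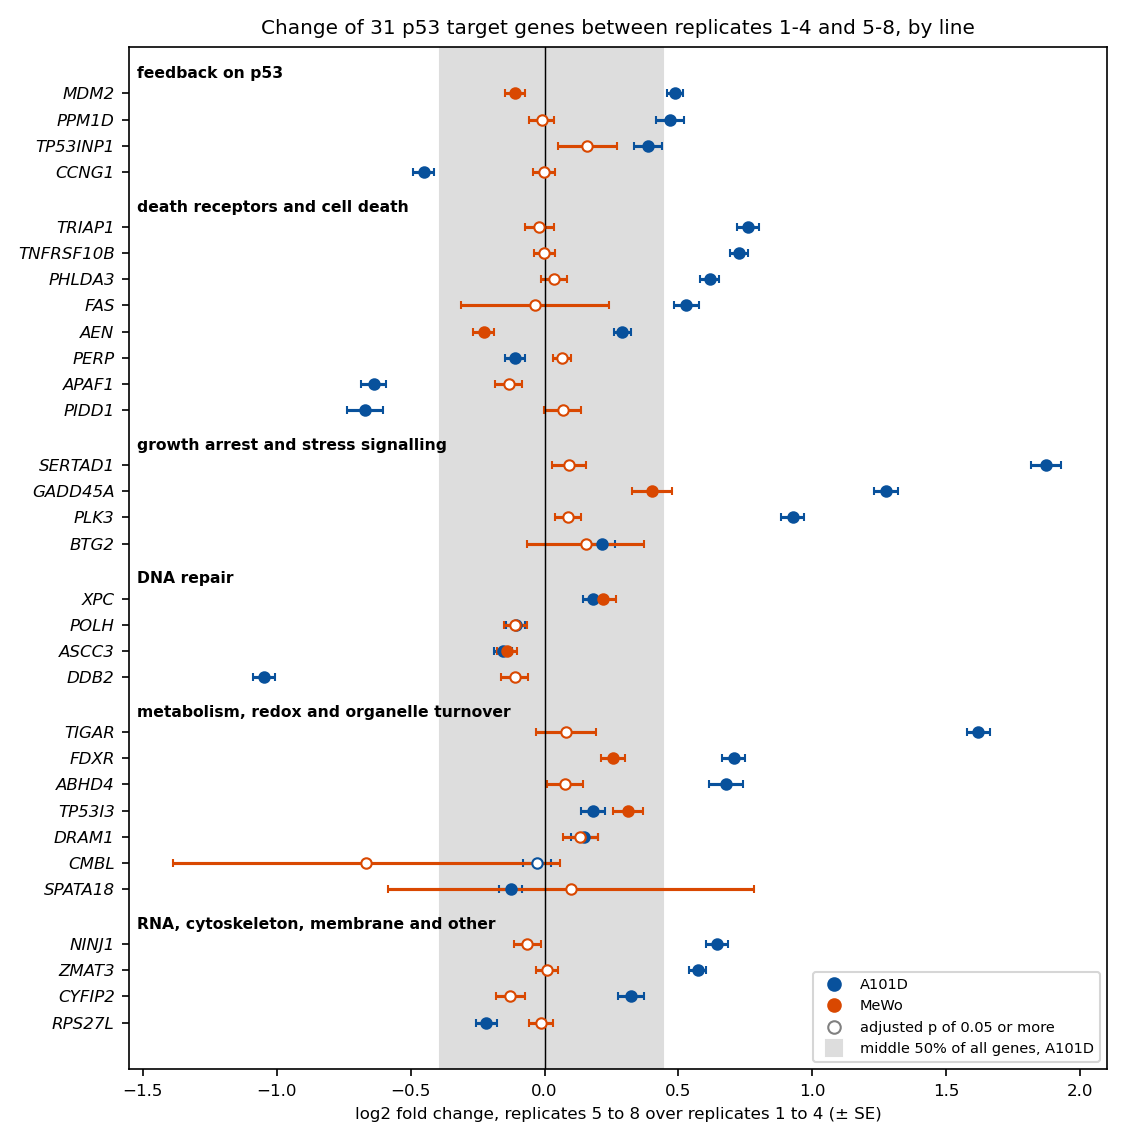
Log2 fold change of replicates 5 to 8 over replicates 1 to 4 (horizontal axis) with its standard error for 31 p53 target genes, in A101D (blue) and MeWo (orange), grouped by role. Open symbols did not pass an adjusted p of 0.05, and the grey band holds the middle 50% of all genes tested in A101D. SERTAD1, TIGAR and GADD45A are farthest to the right in A101D and DDB2 farthest to the left, while the called MeWo points lie between -0.23 and 0.40.

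MDM2, the ubiquitin ligase that marks p53 for degradation, was higher in A101D than in MeWo throughout. The gene lies on chromosome 12 (68808176 to 68850686, plus strand, GENCODE v29 on GRCh38). MDM2 measured 515, 559, 494 and 505 CPM in A101D replicates 1 to 4 and 729, 731, 722 and 718 CPM in replicates 5 to 8. In MeWo it measured 101.4, 100.4, 100.6 and 99.3 CPM in replicates 1 to 4 and 92.7, 96.8, 89.1 and 93.4 CPM in replicates 5 to 8. Every A101D library was above every MeWo library, and in neither line did the sets of replicate numbers overlap. MDM2 was 5.16-fold lower in MeWo in replicates 1 to 4 (adjusted p = 3.77e-39) and 7.80-fold lower in replicates 5 to 8 (adjusted p = 1.22e-42). In A101D it was 1.40-fold higher in replicates 5 to 8 (log2 0.49 ± 0.030 SE, adjusted p = 7.2e-18). In MeWo it was lower by the thinnest margin (log2 -0.11 ± 0.039 SE, adjusted p = 0.0499991). That MeWo call was lost when any of A101D replicates 1, 4, 6 and 7 or MeWo replicates 1, 2, 3, 7 and 8 was left out, with adjusted p from 0.0518 to 0.123. It was also lost with upper-quartile factors, total counts and no low-count filter (adjusted p = 0.0809, 0.205 and 0.297). The changes in the lines differed by -0.60 ± 0.049 (adjusted p = 1.56e-13).

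The other feedback genes did not follow MDM2 as a group. PPM1D, the phosphatase WIP1 that removes activating phosphates from p53 and its kinases, measured 25.8 ± 1.1 and 35.7 ± 2.1 CPM in A101D replicates 1 to 4 and 5 to 8 (SD, n = 4). In MeWo it measured 41.0 ± 1.0 and 40.6 ± 2.5 CPM. It was the only feedback gene higher in MeWo, by 0.67 and 0.19 on the log2 scale, and the libraries of the lines overlapped in replicates 5 to 8. CCNG1, cyclin G1, which works with a phosphatase that acts on MDM2, was lower in A101D replicates 5 to 8 than in replicates 1 to 4 (151 ± 7.7 against 207 ± 13 CPM, log2 -0.45, adjusted p = 2.54e-13). TP53INP1, a nuclear protein of the p53 response that also serves autophagy, was 5.27-fold and 6.17-fold lower in MeWo, where it measured 4.61 ± 0.35 and 5.17 ± 0.54 CPM. In A101D it was higher in replicates 5 to 8 by 0.39 on the log2 scale.

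**Figure D3:**
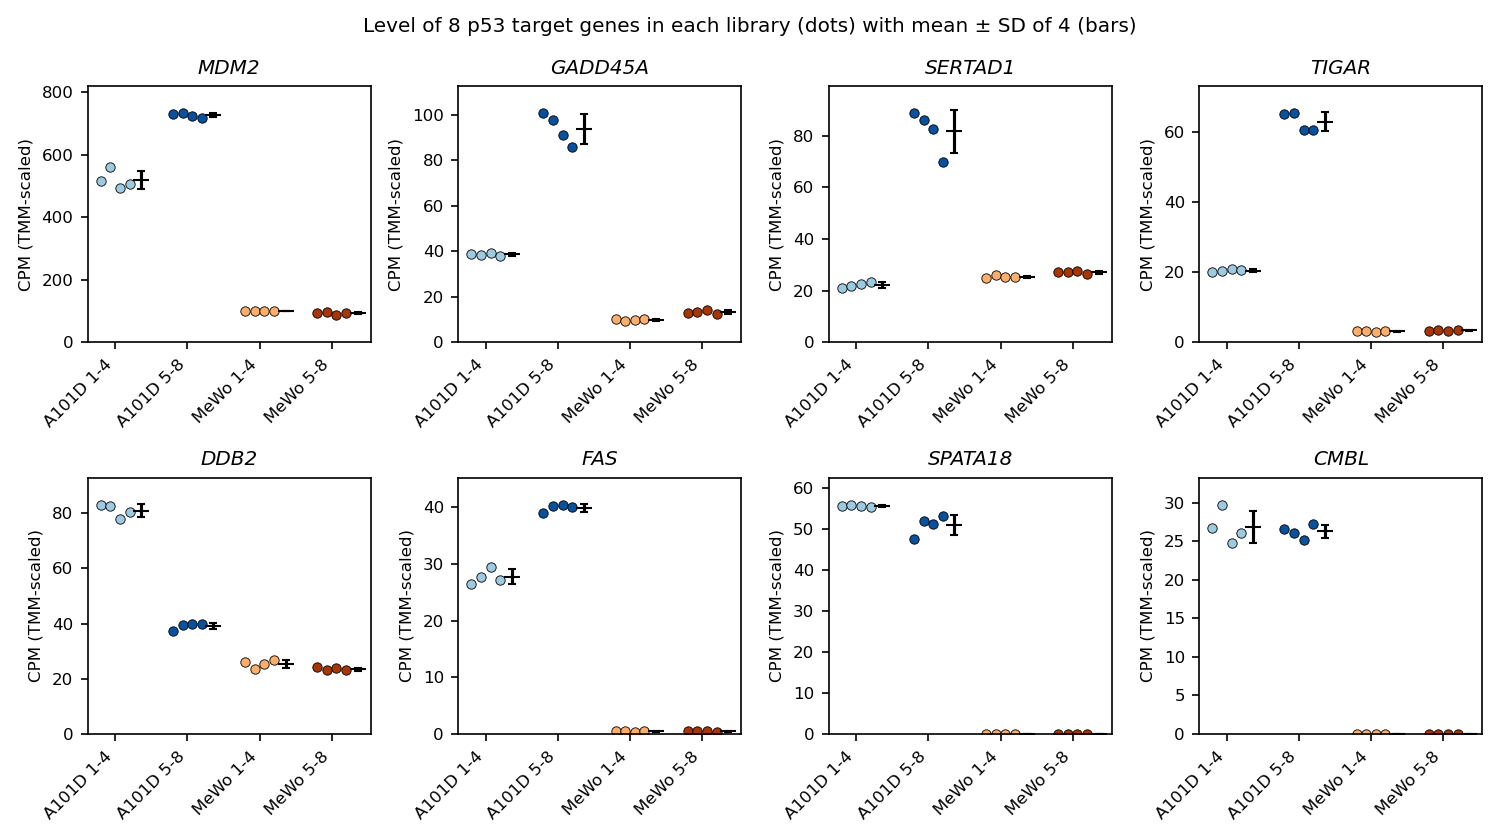
CPM on TMM-scaled library sizes (vertical axes, each from 0) of 8 p53 target genes in every library, by group of 4, with the mean and SD beside the dots. In A101D, MDM2, GADD45A, SERTAD1, TIGAR and FAS lie higher in replicates 5 to 8 without overlap. DDB2 and SPATA18 lie lower there without overlap, and CMBL overlaps. FAS, SPATA18 and CMBL lie at or near 0 in all MeWo libraries.

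The promoters of 25 of the 32 genes were matched by symbol in RefSeq (GRCh38.p14), each covering 250 bases before to 50 bases after a start site. TP53INP1, TNFRSF10B, CMBL, ASCC3, TNFRSF10C, GADD45A and PHLDA3 were not matched. They were searched on both strands for the p53 half-site consensus, a 10-base motif that reads the same on either strand, and for pairs of half-sites with at most 1 mismatch each and at most 1 base between them. An exact half-site was present in 6 of the 25 genes and in 8.06% of all 27305 genes with an entry (6.63% of 35116 promoters). A pair was present in 2 of the 25, MDM2 and DDB2, and in 1.05% of all genes (0.834% of promoters). These matches describe letters in a window, and sites outside it were not searched. Both pairs are printed, with the matched bases in capitals.
MDM2 pair: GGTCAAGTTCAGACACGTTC
DDB2 pair: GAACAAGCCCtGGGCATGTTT

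The MDM2 pair at chr12:68808923-68808942 (plus strand) has 1 mismatch in each of its half-sites and none between them, lies 94 to 75 bases before a RefSeq start, and falls in an intron of MDM2 in GENCODE v29. The DDB2 pair at chr11:47214979-47214999 (plus strand) is exact in both, with 1 base between, shown in lower case, and lies in an exon 6 to 26 bases after the start. The 5 other genes with an exact half-site were FAS, RPS27L, AEN, FDXR and ABHD4, all in bases that GENCODE v29 annotates as exon, and AEN and FDXR hold the same 10 letters. The stretch of the MDM2 window that no GENCODE v29 exon covers, chr12:68808767-68809001 on the plus strand, reads as follows, with the pair in capitals.
MDM2 window: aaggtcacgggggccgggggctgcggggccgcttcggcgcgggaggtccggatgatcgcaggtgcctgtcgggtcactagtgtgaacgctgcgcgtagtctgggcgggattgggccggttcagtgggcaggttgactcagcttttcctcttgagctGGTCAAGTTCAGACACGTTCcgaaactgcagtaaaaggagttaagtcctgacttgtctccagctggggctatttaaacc

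The 7 genes with a match did not move as a block. Between replicates 1 to 4 and 5 to 8 in A101D, MDM2, FAS, AEN, FDXR and ABHD4 were higher in replicates 5 to 8, and DDB2 and RPS27L were lower. Of all 31 tested target genes 21 were higher and 9 lower there, and of all genes 33.1% and 32.4%. The AEN and FDXR changes, at the same letters, were 0.29 and 0.71 on the log2 scale in A101D, and -0.23 and 0.25 in MeWo. All 7 but ABHD4 were lower in MeWo in both sets, as were 25 of the 31 target genes. Of all genes, 42.3% were lower in MeWo in replicates 1 to 4 and 43.9% in replicates 5 to 8. ABHD4 was lower in replicates 5 to 8 (log2 -0.57) and did not pass in replicates 1 to 4 (log2 0.03, adjusted p = 0.665).

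Among the death receptors, FAS was far lower in MeWo and TNFRSF10B moderately so. FAS, the receptor for FAS ligand, lies on chromosome 10 (88990582 to 89015785, plus strand). It measured 26.4, 27.8, 29.5 and 27.2 CPM in A101D replicates 1 to 4 and 38.9, 40.2, 40.4 and 40.0 CPM in replicates 5 to 8. The MeWo values were 0.460, 0.508, 0.318 and 0.539 CPM, then 0.452, 0.476, 0.532 and 0.334 CPM. No library of one line came near those of the other, and in A101D the sets of replicate numbers did not overlap. The summed counts were 9306 in A101D and 122 in MeWo, a ratio of 75.4 per scaled read (exact 95% interval 63.1 to 90.9, counting error only). In A101D FAS was 1.44-fold higher in replicates 5 to 8 (adjusted p = 1.55e-13). The change in MeWo was -0.04 ± 0.28 and the difference between the changes did not pass (-0.57 ± 0.28, adjusted p = 0.0942). It passed without MeWo replicate 3 (log2 -0.74, adjusted p = 0.0345) and with limma-trend (adjusted p = 0.012). Exons of FAS share 8.9% of their bases with ACTA2 on the opposite strand.

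TNFRSF10B, the TRAIL receptor DR5, kept a high level in both lines. It measured 227 ± 2.8 and 377 ± 21 CPM in the A101D groups and 116 ± 4.0 and 116 ± 3.5 CPM in the MeWo groups. It was 1.65-fold higher in A101D replicates 5 to 8 (adjusted p = 1.61e-21), with a MeWo change of 0.00 ± 0.039 and a difference of -0.73 ± 0.052 (adjusted p = 2.83e-15). Its neighbour TNFRSF10C, a decoy receptor that binds TRAIL without signalling death, had 29 counts over the 8 A101D libraries and 9 over those of MeWo. The ratio was 3.18 (exact 95% interval 1.47 to 7.65), with group means of 0.0306 to 0.127 CPM, and the low-count filter kept it out of the tests. In the fit without that filter TNFRSF10C was lower in MeWo in replicates 5 to 8 (log2 -1.48 ± 0.51 SE, adjusted p = 0.0169) and did not pass in replicates 1 to 4 (log2 -1.22 ± 0.54, adjusted p = 0.0745). Another annotated gene on the same strand shares 26.0% of its exon bases, so these few reads are uncertain in their origin.

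The remaining cell death genes split in A101D. TRIAP1, a small mitochondrial protein that restrains apoptosis, was 1.69-fold higher in replicates 5 to 8 (90.4 ± 2.6 against 53.5 ± 2.6 CPM). PHLDA3, which blocks AKT at the membrane, was 1.53-fold higher (362 ± 16 against 236 ± 11 CPM), and AEN, a nuclease of apoptosis, 1.22-fold higher. PIDD1, APAF1 and PERP went the other way. PIDD1, the scaffold of the PIDDosome, was 1.59-fold lower, APAF1, the core of the apoptosome, was 1.56-fold lower, and PERP, a membrane protein of desmosomes and cell death, was lower by 0.11 on the log2 scale. All 6 of these changes passed (adjusted p at most 0.00816), where 33.1% of all genes were higher and 32.4% lower. PERP lost its call with upper-quartile factors (adjusted p = 0.407), with total counts (adjusted p = 0.85) and without A101D replicate 2 or 5 (adjusted p = 0.0505 and 0.0506).

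In MeWo 1 of the 8 tested death genes passed, where 6.16% of all genes were higher and 7.45% lower, so this count is near the background. That gene was AEN, which was lower in replicates 5 to 8 (89.8 ± 4.7 against 105 ± 2.6 CPM, log2 -0.23, adjusted p = 5.84e-05), opposite to A101D. The AEN changes differed by -0.52 ± 0.051 (adjusted p = 2.45e-11). APAF1 in MeWo (log2 -0.13, adjusted p = 0.0689) passed without A101D replicate 2 or MeWo replicate 4 or 5, with adjusted p from 0.0114 to 0.0406. It also passed with median-of-ratios factors (adjusted p = 0.0383) and with the MeWo groups alone (adjusted p = 0.0467). PERP was higher in MeWo replicates 5 to 8 with total counts (log2 0.10, adjusted p = 0.0105). PERP was the only death gene higher in MeWo in both sets, at 209 ± 9.3 and 218 ± 2.4 CPM against 120.3 ± 3.3 and 111 ± 4.5 CPM. It was also the highest of the 32 genes there per kb of all annotated exons, a length that can exceed that of the transcripts expressed. PIDD1 was 1.29-fold lower in MeWo in replicates 1 to 4 and 1.29-fold higher in replicates 5 to 8, and its libraries overlapped between the lines in replicates 1 to 4. PIDD1 shares 1.8% of its exon bases with RPLP2, an opposite-strand ribosomal gene with 272443 counts against 11948 for PIDD1.

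All 4 arrest and stress genes were higher in A101D replicates 5 to 8, by 0.22 to 1.87 on the log2 scale, where 33.1% of all genes were higher. SERTAD1, a regulator of CDK4 and E2F, lies on chromosome 19 (40421592 to 40426025, minus strand). It measured 21.2, 21.7, 22.8 and 23.4 CPM in A101D replicates 1 to 4 and 88.6, 86.0, 82.6 and 69.8 CPM in replicates 5 to 8. MeWo libraries measured 24.8, 25.9, 25.4 and 25.5 CPM, then 27.1, 27.4, 27.6 and 26.3 CPM. The A101D groups were far apart, with replicate 8 the lowest of its group, and the MeWo groups lay above A101D replicates 1 to 4 and below replicates 5 to 8.

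SERTAD1 was 3.66-fold higher in A101D replicates 5 to 8 (log2 1.87 ± 0.057 SE, adjusted p = 8.91e-26). The MeWo change was 0.09 ± 0.062 (adjusted p = 0.385), and the changes differed by -1.78 ± 0.085 (adjusted p = 1.82e-19), the widest difference among the 31 genes. MeWo was 1.14-fold above A101D in replicates 1 to 4 (adjusted p = 0.00765) and 3.01-fold below it in replicates 5 to 8. The first of these was lost without the low-count filter (adjusted p = 0.163).

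GADD45A, a stress sensor that slows entry into mitosis, lies on chromosome 1 (67685061 to 67688338, plus strand). It measured 39.0, 38.5, 39.3 and 38.1 CPM in A101D replicates 1 to 4 and 100.7, 97.8, 91.4 and 85.7 CPM in replicates 5 to 8. MeWo had 10.4, 9.59, 9.76 and 10.4 CPM, then 12.8, 13.5, 14.3 and 12.5 CPM. The sets of replicate numbers did not overlap in either line, and every A101D library was above every MeWo library. GADD45A was 2.42-fold higher in A101D replicates 5 to 8 (adjusted p = 8.51e-26) and 1.32-fold higher in MeWo (adjusted p = 0.000228). The changes differed by -0.87 ± 0.087 (adjusted p = 3.67e-11). It had the largest change in MeWo among the 7 target genes that passed there.

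PLK3, a stress kinase of the polo family, was 1.90-fold higher in A101D replicates 5 to 8 (66.3 ± 3.8 against 34.9 ± 1.4 CPM). Its MeWo groups measured 27.5 ± 0.84 and 29.2 ± 0.60 CPM, a change that did not pass. BTG2, an antiproliferative cofactor of mRNA decay, was 1.16-fold higher in A101D replicates 5 to 8 (30.4 ± 1.4 against 26.1 ± 0.56 CPM), a call lost with limma-trend (adjusted p = 0.0828). It was nearly missing from MeWo, with 218 summed counts against 7765. The ratio of A101D over MeWo was 35.2 (exact 95% interval 30.8 to 40.5).

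Of the 4 DNA repair genes, 3 were lower and 1 higher in A101D replicates 5 to 8, where 32.4% of all genes were lower and 33.1% higher. With total counts DDB2 alone remained lower. DDB2, the subunit that finds ultraviolet lesions in chromatin, lies on chromosome 11 (47214465 to 47239240, plus strand). It measured 82.9, 82.6, 77.9 and 80.2 CPM in A101D replicates 1 to 4 and 37.4, 39.3, 40.0 and 39.9 CPM in replicates 5 to 8. MeWo libraries measured 26.0, 23.4, 25.2 and 26.7 CPM, then 24.2, 23.0, 23.7 and 23.0 CPM. The A101D groups did not overlap, the MeWo groups did, and every A101D library remained above every MeWo library.

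DDB2 was 2.07-fold lower in A101D replicates 5 to 8 (log2 -1.05 ± 0.040 SE, adjusted p = 2.28e-24), the largest decrease among the 31 genes. The MeWo change was -0.11 ± 0.050 (adjusted p = 0.148) and the changes differed by 0.94 ± 0.064 (adjusted p = 1.03e-15). The line difference was 3.19-fold in replicates 1 to 4 and 1.67-fold in replicates 5 to 8. DDB2 and MDM2, the genes with paired half-sites, had changes of opposite sign in A101D.

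XPC, which recognises bulky lesions for nucleotide excision repair, was higher in replicates 5 to 8 in both lines, by 0.18 in A101D (adjusted p = 6.84e-05) and by 0.22 in MeWo (adjusted p = 0.0017) on the log2 scale. The XPC changes differed by 0.03 ± 0.062, which did not pass. Its exons overlap 3 opposite-strand genes, among them LSM3. ASCC3, a helicase of alkylation repair and stalled ribosomes, was lower in both lines (log2 -0.15 in A101D and -0.14 in MeWo), and its A101D call was lost with total counts (adjusted p = 0.117). POLH, the polymerase that copies past ultraviolet lesions, was lower in A101D (log2 -0.11, adjusted p = 0.00904). That call was lost with upper-quartile factors (adjusted p = 0.461), with total counts (adjusted p = 0.893) and without A101D replicate 1 (adjusted p = 0.0652). All 4 repair genes were lower in MeWo in both sets, by 0.74 to 1.67 on the log2 scale in size. Of all genes, 42.3% were lower in replicates 1 to 4 and 43.9% in replicates 5 to 8.

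Metabolic and organelle genes ranged from a change of over 3-fold to no detectable change. TIGAR, a phosphatase that diverts sugar from glycolysis to the pentose phosphate pathway, lies on chromosome 12 (4307763 to 4354593, plus strand). It measured 20.01, 20.4, 21.0 and 20.5 CPM in A101D replicates 1 to 4 and 65.2, 65.3, 60.6 and 60.6 CPM in replicates 5 to 8. The MeWo values were 3.31, 3.33, 3.05 and 3.29 CPM, then 3.36, 3.55, 3.40 and 3.42 CPM. The A101D groups were widely separated, and the MeWo groups were separated by a narrow gap.

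TIGAR was 3.07-fold higher in A101D replicates 5 to 8 (log2 1.62 ± 0.045 SE, adjusted p = 4.18e-29), with a MeWo change of 0.08 ± 0.11 (adjusted p = 0.723). The changes differed by -1.54 ± 0.12 (adjusted p = 5.02e-14). The line difference was 6.27-fold in replicates 1 to 4 and 18.2-fold in replicates 5 to 8. An annotated gene on the same strand covers 42.6% of the exon bases of TIGAR, and it had 6 counts in all libraries together.

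FDXR, the reductase that feeds electrons to mitochondrial ferredoxin, was higher in replicates 5 to 8 in both lines. It measured 69.7 ± 2.9 against 42.7 ± 1.3 CPM in A101D and 46.2 ± 2.6 against 38.7 ± 1.8 CPM in MeWo (adjusted p = 9.92e-18 and 0.00013). The change was smaller in MeWo, by 0.45 ± 0.063 in size (adjusted p = 9.73e-08). Its line difference in replicates 1 to 4 was log2 -0.14 (adjusted p = 0.00503). Leaving out MeWo replicate 1 or 2 ended that call (log2 -0.10 and -0.11, adjusted p = 0.0749 and 0.0519).

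TP53I3, a quinone reductase, was also higher in both lines, by 0.18 in A101D and 0.31 in MeWo on the log2 scale (adjusted p = 0.00046 and 0.000117), with no detected difference between the changes (0.13 ± 0.071, adjusted p = 0.13). ABHD4, a lipase of N-acyl phospholipids, was 1.60-fold higher in A101D replicates 5 to 8 (23.2 ± 1.7 against 14.5 ± 0.65 CPM) and measured 14.8 ± 0.74 and 15.7 ± 1.4 CPM in MeWo. DRAM1, a lysosomal membrane protein of autophagy, was higher in A101D by 0.15 on the log2 scale, although its libraries overlapped. The DRAM1 call was lost without A101D replicate 3 (log2 0.11, adjusted p = 0.0593) and without the low-count filter (adjusted p = 0.243).

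SPATA18 and CMBL separated the lines almost completely. SPATA18, a mediator of the removal of damaged mitochondria, lies on chromosome 4 (52051331 to 52097292, plus strand). It measured 55.7, 55.9, 55.5 and 55.4 CPM in A101D replicates 1 to 4 and 47.5, 51.9, 51.1 and 53.2 CPM in replicates 5 to 8. In MeWo it had 1 count in replicate 1, 2 counts in replicate 6 and 0 in the other libraries. Over all libraries that was 14579 counts against 3, a ratio of 4803 (exact 95% interval 1643 to 23292). In A101D the sets of replicate numbers did not overlap, and SPATA18 was 1.09-fold lower in replicates 5 to 8 (adjusted p = 0.00729). This call was lost with upper-quartile factors, total counts and limma-trend (adjusted p = 0.285, 0.609 and 0.549).

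CMBL, a cytosolic hydrolase, lies on chromosome 5 (10275875 to 10308026, minus strand). It measured 26.7, 29.7, 24.8 and 26.1 CPM in A101D replicates 1 to 4 and 26.6, 26.1, 25.2 and 27.3 CPM in replicates 5 to 8. MeWo had 1 count in replicate 3, 2 in replicate 4, 1 in replicate 7 and 0 in the other libraries. The ratio of 7278 to 4 counts was 1798 (exact 95% interval 702 to 6601). CMBL was the only one of the 31 genes with no call between the sets of replicate numbers in A101D (log2 -0.03 ± 0.053, adjusted p = 0.662), and those libraries overlapped.

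The last role holds genes of RNA binding, cytoskeleton, membrane and ribosome. ZMAT3, an RNA-binding zinc finger protein that adjusts splicing, was 1.49-fold higher in A101D replicates 5 to 8 (253 ± 2.7 against 170.0 ± 5.6 CPM). NINJ1, which ruptures the plasma membrane of dying cells, was 1.56-fold higher (98.2 ± 4.7 against 62.8 ± 3.4 CPM). CYFIP2, a subunit of the actin-regulating WAVE complex, was 1.25-fold higher. RPS27L, a ribosomal protein with a close paralogue, RPS27, with which reads could be shared, was 1.16-fold lower.

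With limma none of these 4 passed in MeWo, where 6.16% of all genes were higher and 7.45% lower. An unadjusted p under 0.05 was found for 1 of the 4 and for 5497 of all 21569 genes, so both counts are near the background. CYFIP2 in MeWo (log2 -0.13, adjusted p = 0.123) passed without MeWo replicate 4 or 5 (adjusted p = 0.0164 and 0.0471). The changes in the lines differed for all 4 genes, where the difference was negative for 23.2% of all genes and positive for 25.9%. It was -0.71 for NINJ1, -0.56 for ZMAT3, -0.45 for CYFIP2 and 0.20 for RPS27L. Without MeWo replicate 4 the RPS27L difference was 0.13 (adjusted p = 0.0463).

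Levels of different genes can be compared only per length. Per kb of annotated exon, which counts every exon of every GENCODE v29 transcript, PHLDA3 was the highest of the 32 genes in A101D, with 75.1 CPM per kb in replicates 1 to 4 and 115 in replicates 5 to 8. CCNG1 was next in replicates 1 to 4 at 66.7 and TNFRSF10B next in replicates 5 to 8 at 73.0. In MeWo PERP led at 48.7 and 50.9 CPM per kb, followed by CCNG1 at 44.1 and 43.9. PHLDA3 stood at 13.6 and 13.9 there, and MDM2 at 7.56 and 7.001, against 39.0 and 54.6 in A101D. The lowest levels in MeWo were those of SPATA18 and CMBL, and TNFRSF10C was the lowest in A101D. All these ranks use the length of all annotated exons together, which was 9127 bases for RPS27L, 4290 for PERP and 3138 for PHLDA3. A gene whose expressed transcripts are much shorter ranks too low on it. Lengths of the transcripts expressed here were not estimated.

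**Figure D4:**
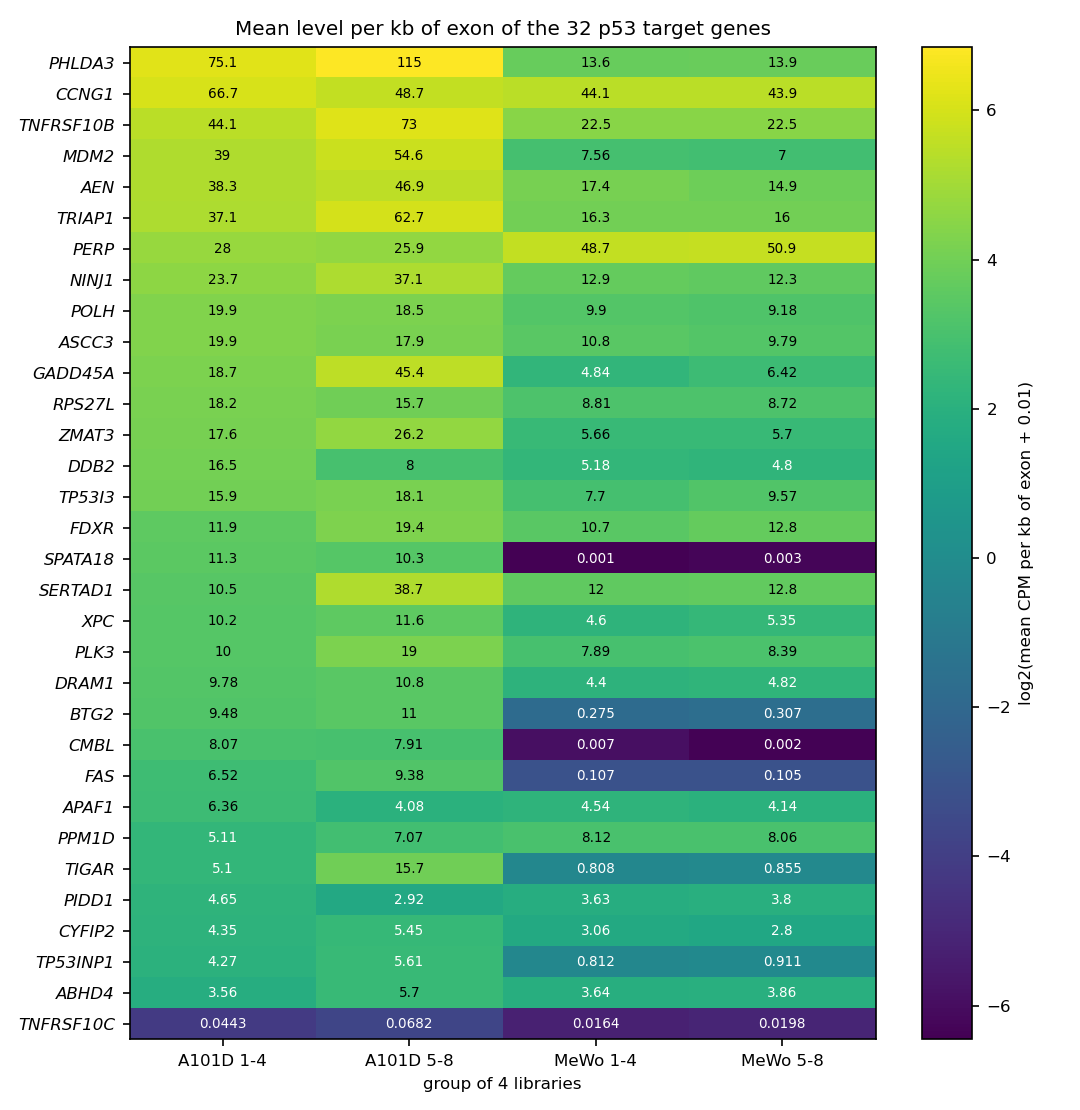
Mean CPM per kb of exon (printed numbers) of the 32 p53 target genes in the 4 groups of 4 libraries, ordered by A101D replicates 1 to 4. The colour shows log2 of the mean plus 0.01. PHLDA3 heads the A101D columns and PERP and CCNG1 the MeWo columns, and SPATA18, CMBL, FAS, BTG2 and TNFRSF10C are dark in MeWo.

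Genes around the list were read in the same fits. MDM4, the relative of MDM2 that blocks p53 at the DNA, did not pass between the sets in A101D (38.4 ± 1.8 and 39.7 ± 1.8 CPM) and was 1.54-fold and 1.52-fold higher in MeWo. Among 20 further p53 targets kept outside the main list, 10 were higher and 5 lower in A101D replicates 5 to 8, against 33.1% and 32.4% of all genes, with a median log2 fold change of 0.08. In MeWo 5 were higher and 5 lower, against 6.16% and 7.45%. Between the lines 17 of 20 were lower in MeWo in replicates 1 to 4 (42.3% of all genes) and 16 in replicates 5 to 8 (43.9%). CDKN1A, the CDK inhibitor p21, measured 382 ± 4.1 and 689 ± 21 CPM in A101D and 17.9 ± 0.31 and 15.01 ± 1.2 CPM in MeWo. It was 21.3-fold and 45.9-fold lower in MeWo. On the log2 scale it was higher in A101D replicates 5 to 8 by 0.85 and lower in MeWo replicates 5 to 8 by 0.25. AEN had the same directions, and so did MDM2, whose MeWo call was lost in several alternative fits.

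The sestrins and BAX went separate ways. SESN2, a leucine sensor that restrains mTORC1, was 3.39-fold higher in A101D replicates 5 to 8 (128 ± 11 against 37.6 ± 0.56 CPM) and 1.57-fold higher in MeWo (19.8 ± 2.0 against 12.5 ± 0.68 CPM). SESN1 was lower in A101D by 0.18 on the log2 scale with overlapping libraries, and stayed at 5.86 ± 0.21 and 5.91 ± 0.30 CPM in MeWo. BAX, the pore-forming death effector, was 1.47-fold lower in A101D replicates 5 to 8 (82.7 ± 4.2 against 121 ± 3.1 CPM) and 1.11-fold lower in MeWo, where its libraries overlapped (adjusted p = 0.0193).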

How the data were processed

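Total RNA of 16 libraries was sequenced after a stranded kit, per the labels' protocols. Trimmomatic 0.39-1, STAR 2.7.1a, featureCounts 2.0.0 and GRCh38 are named in the submitters' processing notes. For the annotation release and the strand setting, the value is not given in the sources used here. The authors deposited whole-number read counts per Ensembl gene, not normalized, per the file headers, with identifier and count joined in 1 cell (other format). These were separated before use. All 16 columns were matched to samples by line letter and number.

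Because such cells did not pass as counts in a check of units, the planned edgeR test was not run, nor was DESeq2. The separated values were whole-number counts, so this reflects the format of the cells. As planned for that case, limma 3.58.1 (R 4.3.3) with voom weights and robust moderation was used. It fitted all 16 libraries with 4 group means, on TMM-scaled library sizes (trims 30% and 5%). Genes needed 0.298 CPM, or 10 counts at median depth, in 4 libraries and 15 counts in all. Adjustment followed Benjamini and Hochberg over 21569 genes (threshold 0.05). CPM values use the scaled sizes. Intervals are exact binomial at 95% and cover counting error only. Symbols and positions come from GENCODE v29 and a gene name table. The fit was tested on simulated counts, drawn without a line difference and with far fewer changed genes than in these data. They do not test the scaling under differences as wide as those found here.

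The members, lists and division of replicate numbers were chosen with earlier results of these data known. Values of every library are given for MDM2, for genes with a called change of at least 2-fold between replicate numbers and a mean of at least 1 CPM, and for the 3 largest line differences. All 32 genes are accounted for, and a few genes outside the list were fixed by name, of which 1 and the list holding it are not reported here. Promoter sequences are printed only for genes with a half-site pair. Where reads of overlapping genes went is not known. Alternatives were other scaling factors, filters and thresholds, limma-trend, a test against a 2-fold change, the groups of a contrast alone, the replicate number as a block, and leaving out each library.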

Additional observations from a re-analysis of the deposited data

Results flagged for a closer look

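The change between replicates 1 to 4 and 5 to 8 differed between the lines, by the tested difference MeWo minus A101D on the log2 scale, for 21 of the 31 genes. It was most negative for SERTAD1 (-1.78) and TIGAR (-1.54). Less negative values were found for GADD45A (-0.87), PLK3 (-0.84), TRIAP1 (-0.78), TNFRSF10B (-0.73) and NINJ1 (-0.71). Values between -0.60 and -0.45 belonged to MDM2 (-0.60), ABHD4 (-0.60), PHLDA3 (-0.58), ZMAT3 (-0.56), AEN (-0.52), PPM1D (-0.48), FDXR (-0.45) and CYFIP2 (-0.45). The positive differences were those of DDB2 (0.94), PIDD1 (0.74), APAF1 (0.50), CCNG1 (0.45), RPS27L (0.20) and PERP (0.17).

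In 9 of the 124 gene and group combinations examined, 1 library lay far from its other 3 by Dixon's criterion at 95%, where chance alone flags about 6.2. CCNG1 measured 162 CPM in A101D replicate 8 against 146 to 148 CPM in the others of its group. POLH measured 74.4 CPM in A101D replicate 1 against 68.9 to 69.5 CPM. Among MeWo libraries, BTG2 measured 0.978 CPM in replicate 1 (others 0.667 to 0.6995 CPM), ZMAT3 58.2 CPM in replicate 1 (others 53.2 to 53.6 CPM), TIGAR 3.05 CPM in replicate 3 (others 3.29 to 3.33 CPM) and DRAM1 18.2 CPM in replicate 5 (others 20.7 to 20.9 CPM). The other 3 flags are single libraries with 1 or 2 counts beside others at 0, namely SPATA18 in MeWo replicate 1 (0.0288 CPM) and replicate 6 (0.056 CPM) and CMBL in MeWo replicate 7 (0.0296 CPM).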

How the results depend on the processing

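No called change of a target gene switched sign under any alternative run. A test against a 2-fold change (limma treat) left 1482 genes in A101D, 878 higher and 604 lower, with 3 target genes higher and 0 lower. In MeWo it left 1 gene, with 0 target genes higher and 0 lower. For the difference between the changes it left 643 genes, 380 positive and 263 negative (target genes 0 and 2). Between the lines in replicates 1 to 4 it left 5842, 2026 higher and 3816 lower in MeWo (target genes 0 and 15). In replicates 5 to 8 it left 7403, 2894 higher and 4509 lower in MeWo (target genes 0 and 18). The counts of target genes were the same at an unadjusted p under 0.05. In A101D, total counts left 5 target genes and 5770 of all genes lower, against 9 and 6996 in the main fit. In MeWo, median-of-ratios factors gave 5 target genes and 2001 of all genes lower. The number of genes called there was 1892 without the low-count filter and 1595 at a threshold of 0.01. Leaving out 1 library gave 2 to 6 target genes lower in MeWo, with the most without MeWo replicate 4 (6) and replicate 5 (5). The count over all genes moved too. It was 1606 lower in MeWo in the main fit, 2489 without replicate 4 and 1945 without replicate 5. Without MeWo replicate 2, which stood apart, the target genes numbered 21 higher and 9 lower in A101D and 4 and 2 in MeWo. Of all genes, 7225 were then higher and 6905 lower in A101D, and 896 and 1184 in MeWo.

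Within groups, same-numbered libraries of the lines deviated little together (correlations -0.05 to 0.15, 3 of 8 A101D libraries closest to their own number). Group means were subtracted first, so this cannot show anything shared by a whole set of replicate numbers. Whether same-numbered libraries were handled together is not known. With the replicate number as a block, 10649 genes passed for the difference between the changes, 17126 between the lines in replicates 1 to 4 and 18169 in replicates 5 to 8, and no target gene changed its call. The DESeq2 alternative was not run, because the columns, in the format deposited, did not pass as counts. SPATA18, CMBL and TNFRSF10C had 3, 4 and 9 counts over all MeWo libraries, too few to show a change between replicate numbers there. For FAS and BTG2 the standard error of that change in MeWo was 0.28 and 0.22 on the log2 scale.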
